A study of Mus musculus with 50 samples.

Results

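Cholesterol made inside a cell, taken up from lipoproteins or passed on to carrier particles is handled by a small set of proteins, and 32 genes of this set were followed in microglia, the resident macrophages of the brain. The 32 genes were chosen by gene symbol from textbook roles, with earlier results of these data known. All 32 were found among the 53700 genes of the count files. They comprised 4 genes that control the sterol-sensing pathway, 17 enzymes of cholesterol synthesis from Hmgcs1 onward, the thiolase gene Acat2 that supplies this route, 4 genes of uptake, transport and esterification, 4 genes of the liver X receptor (LXR) and efflux arm and 2 enzymes that make oxysterols. All 32 passed the filter on low counts that left 16696 genes for testing.

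When sterols are scarce, the escort protein Scap carries the membrane-bound transcription factor SREBP-2 out of the endoplasmic reticulum, and its released part switches on the synthesis enzymes. When sterols are plentiful, the Insig proteins hold the complex back. Oxysterols made from surplus cholesterol activate the LXRs, which raise the exporters Abca1 and Abcg1 and the ubiquitin ligase Mylip, an enzyme that marks lipoprotein receptors for degradation. In brain, where lipoproteins of the blood do not enter, much cholesterol is made locally, and microglia that clear debris also have to export or store the cholesterol they engulf.

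RNA of microglia sorted from the hippocampus of 50 male C57BL/6J mice was sequenced, 1 library per mouse. The mice had been raised under control conditions (CTR) or with early-life stress (ELS), given as limited bedding and nesting material from postnatal day (P) 2 to P9. Rearing was assigned by litter. Microglia were taken from 12 P9-CTR and 13 P9-ELS mice without injection, and at P200 from 7 CTR-PBS, 6 ELS-PBS, 7 CTR-LPS and 5 ELS-LPS mice that had received saline (PBS) or 1 mg/kg lipopolysaccharide (LPS, a part of bacterial membranes that triggers inflammation) 3 h earlier. Cells were sorted as living CD45int CD11b+ cells, a gate that macrophages of the brain borders can also enter. Myelin was removed only from the adult tissue, only the adult mice were injected, and the paper describes the P9 and P200 mice as separate cohorts. None of these differences can be told apart from age. Levels are given as CPM, the reads of a gene relative to the TMM-scaled total of its library, and differences as log2 fold changes ± standard error (SE) from edgeR's quasi-likelihood test, with 1 mean per group fitted to all mice. A gene was called with a Benjamini-Hochberg adjusted p under 0.05 over all tested genes, and a differentially expressed gene (DEG) also had an absolute log2 fold change above 1.

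Libraries held 5152838 to 42231258 counts. Fewest genes were detected in 2 P9-ELS mice (12482 and 15731) and in CTR-PBS mouse 1.1 (12854), and over the 32 cholesterol genes they held the lowest value of their group 12, 9 and 15 times, and the highest 3, 10 and 9 times. The sum of 7 microglia markers was lower at P9 than after PBS at P200, without overlap in either condition. Its median was 46900 CPM in P9-CTR (32500 to 52500) and 78600 in CTR-PBS (74000 to 79900). In ELS it was 48100 CPM (42000 to 60100) at P9 and 76300 (73000 to 79400) after PBS. After LPS the medians were 68200 CPM in CTR and 72000 in ELS. By contrast, the sum of 5 border macrophage markers was higher at P9 (713 CPM in P9-CTR and 6.08 in CTR-PBS, nearly all of it Mrc1). So were the sums of 6 neuron markers (146 and 5.74 CPM) and 5 markers of oligodendrocyte precursors (45.6 and 0.0916 CPM). The sum of 5 genes of dividing cells was also higher at P9 (853 and 7.75 CPM). Sums of 5 oligodendrocyte markers (30.9 and 48.8 CPM) and 4 endothelial markers (34.4 and 46.8 CPM) were higher in CTR-PBS, with overlapping ranges. Among these markers, Mag, Mobp and Pecam1 were higher at P200 in both conditions. Cldn5 and Cdh5 were lower in both, and Mog was lower in CTR. Of 6 astrocyte markers, 5 were also lower at P200 in both conditions (Aqp4, Gja1, Slc1a2, Gfap and Aldoc, with medians of 14 to 50 CPM in P9-CTR and at most 3.07 in CTR-PBS), while Slc1a3 was higher (118 and 323 CPM).

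Per kilobase of exon, which allows genes to be compared, the cholesterol genes spanned a wide range of levels. In P9-CTR mice the exporter gene Abcg1 stood first with 74.7 ± 16.5 CPM per kb (SD, n = 12), followed by the sterol isomerase gene Ebp with 62.8 ± 8.52 and the methylsterol oxidase gene Msmo1 with 38.1 ± 2.87. The spreads of the top gene and Ebp overlapped, and those of Ebp and Msmo1 did not. In CTR-PBS mice (n = 7) Abcg1 was at 90.4 ± 19.4, Mylip at 84.9 ± 11.3 and Ebp at 79.9 ± 15.3 CPM per kb, 3 levels that did not differ beyond their spread. The receptor gene Vldlr was lowest in both groups. Squalene epoxidase (Sqle) moved from place 13 of 32 in P9-CTR to place 28 in CTR-PBS, and Mylip from place 4 to place 2. LXRβ (Nr1h2) stood at 30.6 ± 4.84 CPM per kb in P9-CTR, against 0.518 ± 0.274 for LXRα (Nr1h3), whose counts share positions with the much more abundant gene Acp2 on the other strand.

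**Figure D1:**
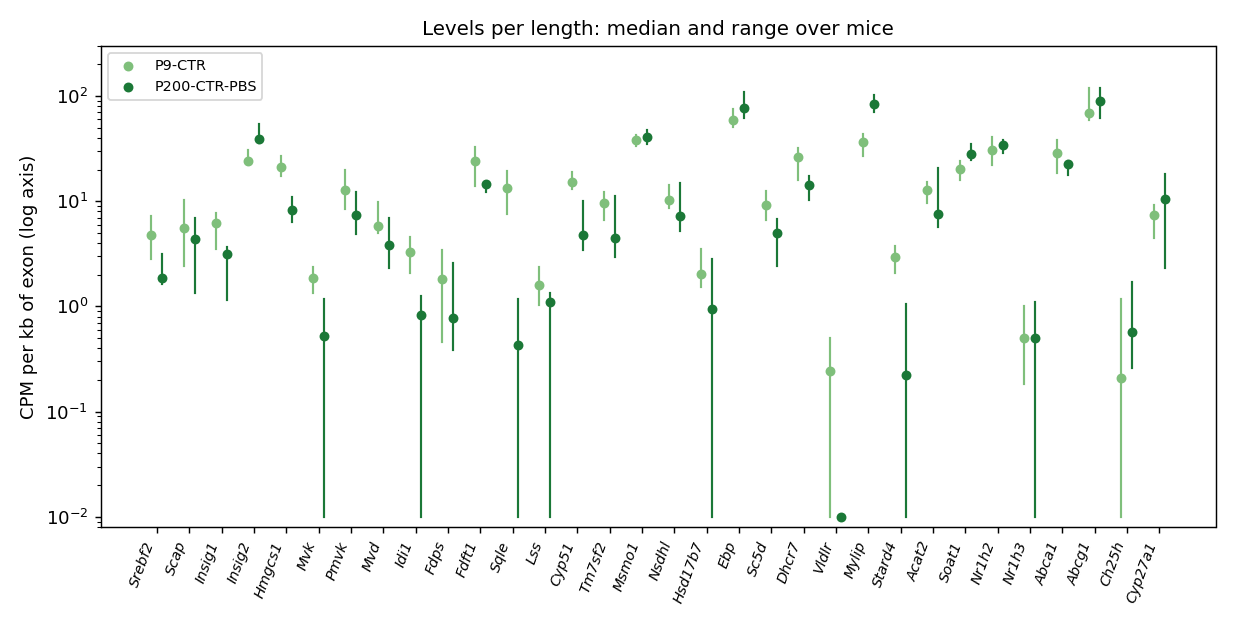
Levels of the 32 cholesterol genes in P9-CTR (light green, n = 12) and CTR-PBS mice at P200 (dark green, n = 7), as CPM per kilobase of exon on a log axis. Points are medians and lines run from the lowest to the highest mouse, with values under 0.01 drawn at 0.01; Abcg1 and Ebp are near the top at both ages, and Sqle, Stard4 and Vldlr are far lower at P200.

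The first question was how the pathway differed between neonatal and adult microglia. Most of its synthesis arm was lower at P200. In CTR mice 20 of the 32 genes were called (44.1% of all tested genes were), of which 16 fell (26.6% of all tested genes fell) and 4 rose (2911 of 16696 tested genes rose). In ELS mice 22 were called (42.2% of all), of which 18 fell (25% of all) and 4 rose (2863 of 16696). Over the 32 genes the median change on the log2 scale was -0.76 in CTR and -0.72 in ELS, against -0.09 and -0.01 over all tested genes. Of the 17 synthesis enzymes, 11 fell and 0 rose in CTR, and 13 fell and 0 rose in ELS. The same 15 cholesterol genes fell in both conditions, namely Insig1, Hmgcs1, Mvk, Pmvk, Idi1, Fdft1, Sqle, Cyp51, Tm7sf2, Hsd17b7, Sc5d, Dhcr7, Vldlr, Stard4 and Abca1. Vldlr was at most 0.247 CPM in any P200 mouse, so it passed the filter (1 CPM in over 2 mice) only through P9 mice. Only a fall could be found for Vldlr, and its place in these counts carries no weight. The 4 that rose were the same in both, Insig2, Mylip, Soat1 and Cyp27a1. Srebf2 fell in CTR alone, and Mvd, Msmo1 and Acat2 in ELS alone, while the difference between the age effects of ELS and CTR mice was not called for any of them. In libraries of whole sorted populations, fewer cells of a type and less RNA per cell cannot be told apart, and the part of the other cell types named above in these differences was not tested.

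DEGs of age numbered 11 of 32 in CTR (10 lower, 1 higher, 26.4% of all tested genes) and 12 in ELS (11 lower, 1 higher, 26.2%). The values of the P9 and P200 groups did not overlap for 9 genes in CTR (2854 of 16696 tested genes) and for 5 in ELS (1941 of 16696). The share of DEGs of both signs was thus 34.4% in CTR and 37.5% in ELS. Vldlr, which passed the filter only through P9 mice, is among the DEGs of both conditions and among the 5 genes without overlap in ELS.

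**Figure D2:**
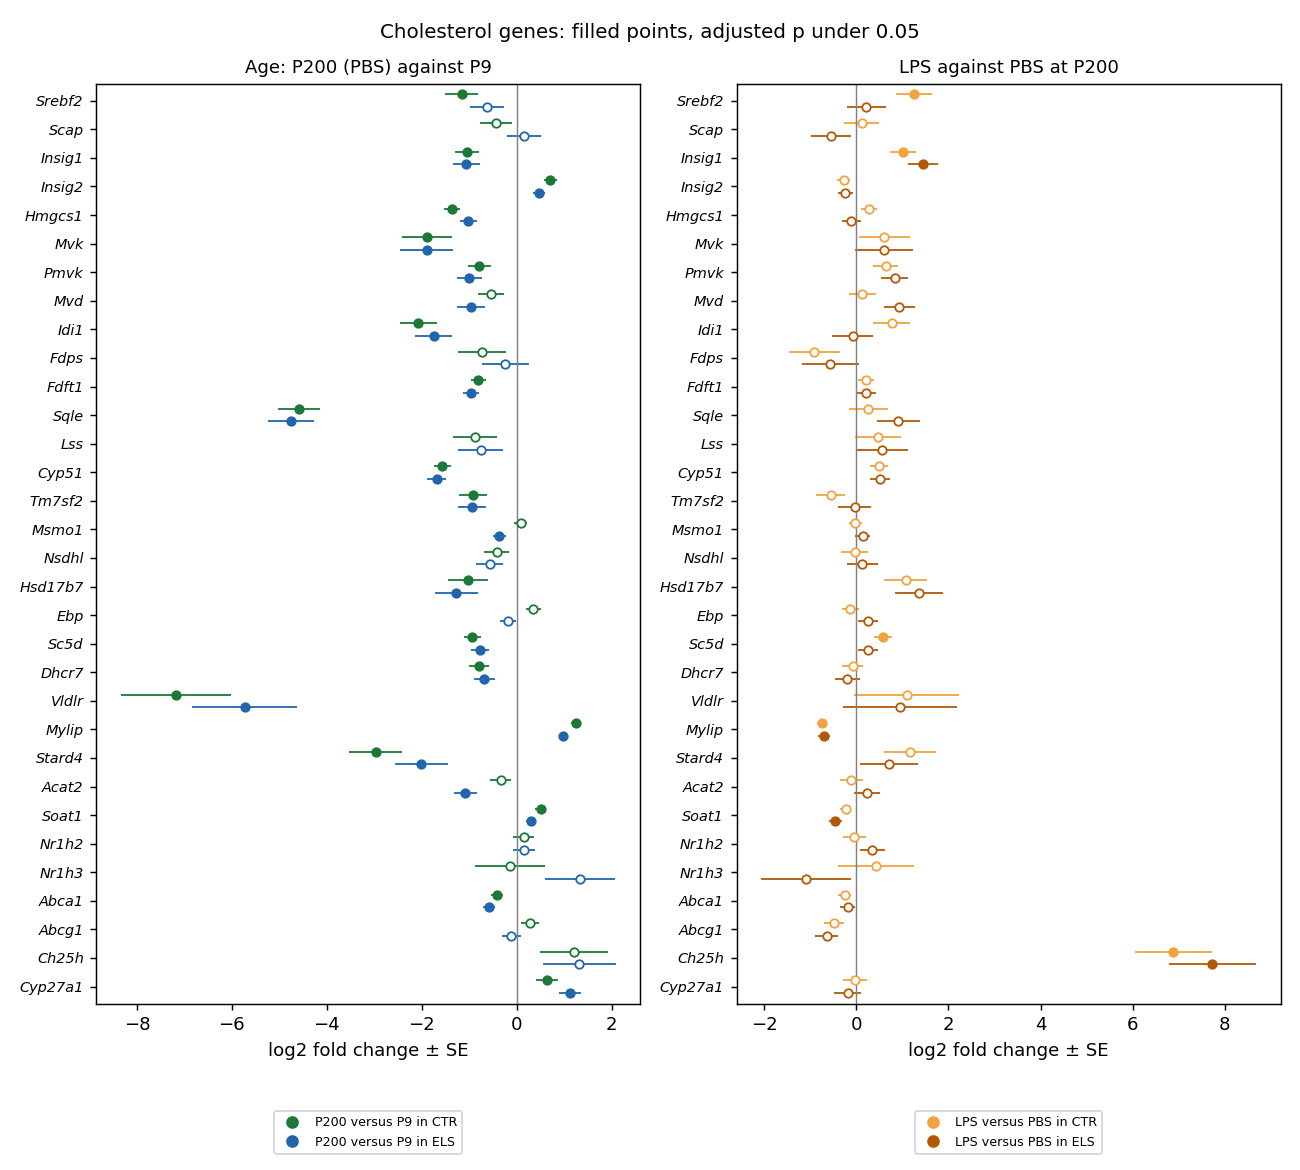
Log2 fold changes ± SE of the 32 cholesterol genes in pathway order, for age (left, PBS-injected P200 against P9, CTR green and ELS blue) and for LPS against PBS at P200 (right, CTR light orange and ELS brown). Filled points have an adjusted p under 0.05; with age most synthesis enzymes lie left of 0 and Sqle at -4.58 in CTR, whereas under LPS Ch25h stands apart at 6.88 in CTR and 7.73 in ELS.

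Promoters of 5 of these genes are shown because the first 3 belong to enzymes that fell together with age, and the last 2 to the Insig pair, whose members moved in opposite directions. The sequences are the 250 bases upstream of the annotated start from RefSeq, build GRCm38.p6, on the gene's own strand and 5′ to 3′. Capitals mark the core of a sterol regulatory element, TCACNCCAC, and the CCAAT box bound by NF-Y, a factor that acts with SREBP-2, each searched on both strands (CCAAT on the other strand reads ATTGG). Hmgcs1 is at chr13:119690101-119690350 (plus strand), Idi1 at chr13:8885356-8885605 (plus), Cyp51 at chr5:4104698-4104947 (minus), Insig1 at chr5:28071162-28071411 (plus), and Insig2 at chr1:121332590-121332839 (minus, the window with most boxes among its 3).
Hmgcs1: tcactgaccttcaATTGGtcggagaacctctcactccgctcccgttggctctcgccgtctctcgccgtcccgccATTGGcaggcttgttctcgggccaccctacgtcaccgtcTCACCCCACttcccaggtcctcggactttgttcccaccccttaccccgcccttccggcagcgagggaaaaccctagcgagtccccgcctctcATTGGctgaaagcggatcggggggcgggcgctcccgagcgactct
Idi1: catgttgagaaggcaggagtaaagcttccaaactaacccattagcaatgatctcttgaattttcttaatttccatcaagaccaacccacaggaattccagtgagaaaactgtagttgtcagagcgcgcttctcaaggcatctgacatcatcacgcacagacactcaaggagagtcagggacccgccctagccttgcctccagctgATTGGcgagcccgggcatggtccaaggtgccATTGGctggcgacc
Cyp51: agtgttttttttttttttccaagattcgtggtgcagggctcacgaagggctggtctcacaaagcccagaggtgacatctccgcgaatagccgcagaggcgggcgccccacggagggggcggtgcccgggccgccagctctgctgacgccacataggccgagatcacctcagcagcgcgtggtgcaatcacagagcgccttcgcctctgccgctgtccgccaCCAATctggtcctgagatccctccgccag
Insig1: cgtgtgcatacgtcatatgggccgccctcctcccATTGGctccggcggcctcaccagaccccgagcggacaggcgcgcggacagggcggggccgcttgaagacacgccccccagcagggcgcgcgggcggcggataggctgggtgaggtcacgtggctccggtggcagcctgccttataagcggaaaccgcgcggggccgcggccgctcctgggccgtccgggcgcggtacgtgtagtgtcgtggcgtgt
Insig2: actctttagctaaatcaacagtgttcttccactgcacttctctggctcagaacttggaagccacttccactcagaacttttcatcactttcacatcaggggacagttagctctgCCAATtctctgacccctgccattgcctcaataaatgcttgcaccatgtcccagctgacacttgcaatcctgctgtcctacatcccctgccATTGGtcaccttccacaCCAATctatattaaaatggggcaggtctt
The sterol core was found once in these windows, in Hmgcs1 at -137 to -129 from the start, and it overlapped no CCAAT box. RefSeq promoters were matched for 27 of the 32 genes (not for Sqle, Fdps, Fdft1, Stard4 and Abcg1). The sterol core was in 1 of the 27 and in 1.22% of all genes of the table. A CCAAT box was in 21 of the 27 and in 37.5% of all genes. The boxes were not limited to genes that fell, since Insig2, Mylip, Soat1 and Cyp27a1, which rose, also held at least 1. The LXR element of the DR4 type was in 0 of the 27 and in 0.226% of all genes, and the interferon core GAAANNGAA was in 1 of the 27, Ebp, and in 8.18% of all genes. A match is a description of these letters and not of binding.

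Sqle, which adds oxygen to squalene in a rate-limiting step, had the largest age difference among the synthesis enzymes. It was between 21.5 and 55 CPM (median 37.8) in P9-CTR mice, and between 0 and 3.30 CPM (median 1.21) in CTR-PBS mice. In P9-ELS mice it was between 20.8 and 51.8 CPM (median 36.1), and in ELS-PBS mice between 0.760 and 2.43 CPM (median 0.989). Every P9 mouse was thus above every PBS-injected P200 mouse. It fell by 4.58 ± 0.44 on the log2 scale in CTR (adjusted p = 2.41e-12, edgeR) and by 4.76 ± 0.48 in ELS (8.1e-12). It lies on chromosome 15 of GRCm39, from 59186869 to 59203043, and part of its exons lies opposite those of Washc5. The counting strand is not given in the sources used here, so that reads of such overlaps cannot be assigned, which concerns 15 of the 32 genes.

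Cyp51, the demethylase that acts on lanosterol, fell by 1.57 ± 0.18 on the log2 scale in CTR (adjusted p = 7.27e-10, edgeR) and by 1.69 ± 0.19 in ELS (4.74e-10). P9-CTR mice ranged from 65.6 to 93.4 CPM with a median of 75.3, and CTR-PBS mice from 17.0 to 49.5 with a median of 23.6. P9-ELS mice ranged from 51.4 to 94.5 CPM (median 71.4), and ELS-PBS mice from 10.3 to 32.4 (median 21.8). The groups did not overlap in either condition, although the highest CTR-PBS value came from mouse 1.1, in which few genes were detected. Part of the exons of Cyp51 lies opposite those of Akap9 (77379 counts over all mice, against 55803 for Cyp51). The other enzymes between lanosterol and cholesterol differed less. Sc5d, a sterol desaturase, fell by 0.94 ± 0.18 in CTR and by 0.78 ± 0.19 in ELS. Dhcr7, which completes cholesterol by reducing its precursor, fell by 0.80 ± 0.21 and 0.68 ± 0.22, the latter a call lost in limma voom with a random term for the first number of the mouse label, here taken as the nest (-0.52) and with only the compared groups fitted (-0.70). Tm7sf2, a sterol reductase, fell by 0.92 ± 0.29 and 0.94 ± 0.30. Its exons overlap those of Vps51 on the same strand.

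Hsd17b7, a ketoreductase of the demethylation steps, was low throughout. Its CPM ran from 7.01 to 16.3 (median 9.46) in P9-CTR and from 0 to 13.1 (median 4.41) in CTR-PBS. In ELS mice it ran from 2.33 to 12.8 (median 10.9) at P9 and from 1.19 to 6.42 (median 3.96) after PBS. The groups overlapped in both conditions, and Hsd17b7 fell by 1.03 ± 0.42 in CTR (adjusted p = 0.0433, edgeR) and by 1.27 ± 0.45 in ELS (0.0185). The CTR call was lost without CTR-PBS mouse 1.1 (-0.80) or 5.1 (-1.0) or either of the 2 CTR-PBS mice numbered 18 (-0.84 and -0.91; mice are named by their labels or by the first number in them), and the ELS call without the ELS-PBS mouse numbered 20 (-1.09). The CTR call was also lost with other filters on low counts (-1.01 and -0.94) and with only the compared groups fitted (-1.01).

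Ebp, Nsdhl and Msmo1 were the enzymes of this stretch with little or no difference. Ebp differed by 0.35 ± 0.16 in CTR (adjusted p = 0.0767, edgeR) and by -0.19 ± 0.17 in ELS (0.385). Its median was 104 CPM in P9-CTR and 133 CPM in CTR-PBS, and the P9-ELS mouse with 15731 detected genes reached 362 CPM. Nsdhl, a sterol dehydrogenase, differed by -0.42 ± 0.26 and -0.57 ± 0.28, neither called. Msmo1 differed by 0.08 ± 0.13 in CTR (0.639), and it fell by 0.37 ± 0.14 in ELS (0.0247), a call lost without ELS-PBS mouse 2.1 or the one numbered 11 (-0.33 in each case), with a stricter filter on low counts (-0.32) and with only the compared groups fitted (-0.39).

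Hmgcs1, which makes the precursor of mevalonate, fell by 1.37 ± 0.17 in CTR (adjusted p = 4.48e-09, edgeR) and by 1.02 ± 0.18 in ELS (5.43e-06). The P9-CTR mice lay between 71.7 and 110 CPM with a median of 86.8, and the CTR-PBS mice between 26.1 and 44.6 with a median of 33.9, without overlap. The P9-ELS mice lay between 48.2 and 109 CPM (median 84.8), and the ELS-PBS mice between 30.1 and 50.7 (median 43.1). The overlap in ELS came from the P9-ELS mouse with 12482 detected genes, which held the lowest value of its group. An antisense RNA gene, Gm48342, shares exon positions with Hmgcs1 and had 17233 counts over all mice, against 69547 for Hmgcs1.

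Mvk, mevalonate kinase, was found at 6.58 to 11.6 CPM (median 9.07) in P9-CTR and at 0 to 5.76 CPM (median 2.56) in CTR-PBS, without overlap. In ELS it was found at 0.0507 to 14.1 CPM (median 10.8) at P9 and at 2.28 to 3.63 CPM (median 2.36) after PBS. These groups overlapped because of 1 mouse, the P9-ELS mouse with 15731 detected genes, at 0.0507 CPM. Mvk fell by 1.89 ± 0.53 in CTR and by 1.9 ± 0.56 in ELS (adjusted p = 0.00315 and 0.00498, edgeR), and the ELS call was lost in limma voom with the random nest term (-1.5). Pmvk, the next kinase, had a median of 15.3 CPM (10.1 to 23.6) in P9-CTR and 8.91 CPM (5.89 to 14.6) in CTR-PBS. Its medians in ELS were 16.7 CPM (8.1 to 44.5) at P9 and 8.56 CPM (4.81 to 15.8) after PBS. Pmvk fell by 0.79 ± 0.24 in CTR and by 1.0 ± 0.26 in ELS, and the groups overlapped in both. Mvd, which removes the carboxyl group of mevalonate diphosphate, fell by 0.96 ± 0.29 in ELS and differed by -0.54 ± 0.27 in CTR (adjusted p = 0.106, edgeR).

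Idi1, the isomerase that forms the reactive isoprene unit, fell by 2.07 ± 0.38 in CTR (adjusted p = 1.48e-05, edgeR) and by 1.75 ± 0.39 in ELS (0.000297). Its values were 5.35 to 11.7 CPM (median 8.56) in P9-CTR and 0 to 3.23 CPM (median 2.13) in CTR-PBS, and these groups were apart. They were 1.43 to 17.4 CPM (median 9.19) in P9-ELS and 1.45 to 4.40 CPM (median 2.74) in ELS-PBS, where the P9-ELS mouse with 12482 detected genes made the groups overlap. Idi1 has processed pseudogenes, and the most abundant of them held 26 counts over all mice against 6553 for Idi1. Fdps, which joins isoprene units to farnesyl diphosphate, was at or under 5.22 CPM in every mouse and was not called (-0.73 ± 0.50 in CTR, -0.24 ± 0.50 in ELS). Fdft1, squalene synthase, fell by 0.81 ± 0.16 and 0.96 ± 0.17, but its exons lie opposite part of Ctsb, a gene with 10223711 counts over all mice against 76467 for Fdft1. Lss, which closes the ring of lanosterol, differed by -0.88 ± 0.46 and -0.76 ± 0.48 and was not called.

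Summed over the 17 enzymes, the level was 729 CPM in the median P9-CTR mouse (611 to 864) and 469 CPM in the median CTR-PBS mouse (454 to 576), without overlap. In ELS it was 769 CPM (662 to 956) at P9 and 451 CPM (423 to 463) after PBS. The 2 most abundant terms of the CTR-PBS sum were Ebp (median 133 CPM) and Msmo1 (median 106 CPM), neither of which was called with age in CTR.

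**Figure D3:**
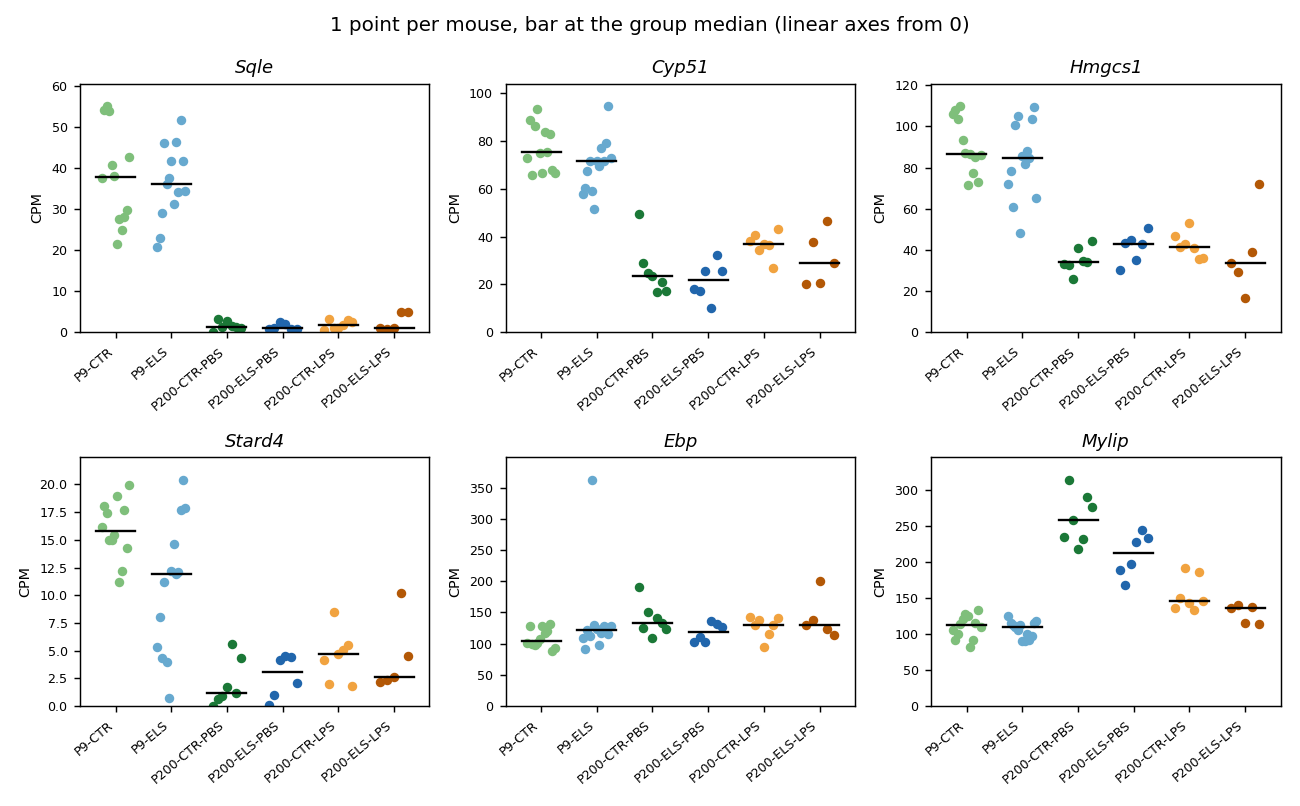
CPM of 6 cholesterol genes in all 50 mice, by group, on linear axes from 0 with 1 point per mouse and a bar at the group median. Sqle, Cyp51, Hmgcs1 and Stard4 are high at P9 and low in the P200 groups, Ebp is at a like level in all groups apart from 1 P9-ELS mouse at 362 CPM, and Mylip is highest in CTR-PBS mice (median 258) and lower after LPS.

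Among the genes that control the pathway, the 2 Insig genes moved apart with age. Insig1, itself a target of SREBP-2, was at 9.69 to 21.4 CPM (median 16.9) in P9-CTR and at 3.12 to 10.1 CPM (median 8.57) in CTR-PBS. In ELS it was at 3.94 to 22.0 CPM (median 15.9) at P9 and at 3.20 to 10.6 CPM (median 6.28) after PBS. It fell by 1.05 ± 0.26 in CTR (adjusted p = 0.00104, edgeR) and by 1.06 ± 0.28 in ELS (0.00163). Insig2, the form that is not driven by SREBP-2, rose by 0.71 ± 0.13 in CTR (6.52e-06) and by 0.47 ± 0.13 in ELS (0.00291), from medians of 68.0 and 75.3 CPM to 108 and 107 CPM. In CTR the lowest adult (99.1 CPM) was above the highest neonate (84.7 CPM). Srebf2, the gene of SREBP-2, ranged from 14.3 to 36.4 CPM (median 24.4) in P9-CTR and from 8.25 to 15.9 (median 9.53) in CTR-PBS. In ELS it ranged from 4.2 to 79.6 CPM (median 21.6) at P9 and from 8.47 to 32.2 (median 16.8) after PBS. It fell by 1.16 ± 0.35 in CTR (0.00645), and the difference was -0.63 ± 0.36 in ELS (0.162). The difference between these effects was 0.53 ± 0.49 (0.763). Scap was not called in CTR (-0.44 ± 0.34) or ELS (0.15 ± 0.35).

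The uptake, transport and esterification genes moved in both directions. Vldlr, a lipoprotein receptor that also binds reelin, was nearly silent in adults. The 12 P9-CTR mice held 557 counts together and each had at least 1, whereas the 7 CTR-PBS mice held 1 count together. The pooled CPM was 306 times as high at P9 (95% interval 54.8 to 12100, counting error only). In ELS there were 427 counts in 13 mice at P9 and 4 counts in 1 of 6 mice after PBS, a ratio of 55.4 (21.5 to 204). The median CPM was 2.01 (0.0547 to 4.09) in P9-CTR and 0.782 (0.121 to 4.61) in P9-ELS, and the highest adult PBS value was 0.113. Other brain cells also express Vldlr, and the part of the higher neuron and precursor markers at P9 in its level was not tested.

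Mylip, the ligase that sends lipoprotein receptors such as Vldlr to degradation, was the gene of the set with the smallest adjusted p. It was at 82.1 to 134 CPM (median 112) in P9-CTR and at 218 to 314 CPM (median 258) in CTR-PBS. In ELS it was at 90.3 to 125 CPM (median 110) at P9 and at 168 to 245 CPM (median 212) after PBS. Each adult was above each neonate in both conditions. Mylip rose by 1.25 ± 0.10 in CTR (adjusted p = 2.45e-15, edgeR) and by 0.98 ± 0.10 in ELS (1.48e-11). The difference between these increases was -0.27 ± 0.14 (unadjusted p = 0.0655, adjusted p = 0.517, edgeR).

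Stard4, a soluble carrier that moves sterol between membranes, fell by 2.97 ± 0.56 in CTR (adjusted p = 2.22e-05, edgeR) and by 2.01 ± 0.56 in ELS (0.00315). Its CPM was 11.17 to 19.96 (median 15.8) in P9-CTR and 0 to 5.56 (median 1.19) in CTR-PBS, without overlap. In ELS it was 0.717 to 20.4 (median 11.9) and 0.0846 to 4.54 (median 3.10), with overlap from 3 P9 mice (0.717, 4.0 and 4.3 CPM). Soat1, the enzyme that esterifies cholesterol for storage, rose by 0.50 ± 0.11 in CTR (0.000138) and by 0.30 ± 0.11 in ELS (0.026), where the call was lost without 1 of the 2 ELS-PBS mice numbered 17 or the one numbered 20 (0.25 in each case), without the filter on low counts (0.30), with only the compared groups fitted (0.28) and in limma voom with the random nest term (0.25). Its median was 169 CPM in P9-CTR and 235 CPM in CTR-PBS, where the lowest mouse (208) was above the highest neonate (203). Acat2, a cytosolic thiolase that feeds the first step of synthesis, had medians of 34.3 CPM (25.5 to 40.6) and 20.0 CPM (15 to 54.8) in the CTR groups. In the ELS groups they were 41.0 CPM (29.9 to 144) and 22.1 CPM (16.2 to 30.4). Acat2 fell by 1.08 ± 0.24 in ELS (0.000226) and differed by -0.34 ± 0.22 in CTR (0.223). Its values are uncertain, because the neighbouring near-identical gene Acat3 can share its reads (25173 counts over all mice, against 35675 for Acat2). Part of the exons of Acat2 also lies opposite those of Tcp1 (167584 counts over all mice).

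The efflux arm moved little. Abca1, which loads cholesterol onto lipid-poor apolipoproteins, fell by 0.42 ± 0.13 in CTR (adjusted p = 0.00492, edgeR) and by 0.59 ± 0.13 in ELS (0.000253), with medians of 293 CPM in P9-CTR and 233 CPM in CTR-PBS. Abcg1, which passes cholesterol to larger particles, differed by 0.27 ± 0.19 and -0.12 ± 0.20 and was not called. Nr1h2 differed by 0.15 ± 0.22 and 0.16 ± 0.23. Nr1h3 was at or under 3.36 CPM in every mouse and was not called. Of the oxysterol enzymes, Cyp27a1, a mitochondrial sterol hydroxylase, had a median of 16.8 CPM (10.1 to 20.8) in P9-CTR and 23.6 CPM (5.34 to 41.3) in CTR-PBS. In ELS its median was 13.0 CPM (3.05 to 21.3) at P9 and 28.6 CPM (23.4 to 34.2) after PBS, with every adult above every neonate. It rose by 0.64 ± 0.23 in CTR (0.0195) and by 1.12 ± 0.23 in ELS (8.52e-05). The CTR call was lost without CTR-PBS mouse 5.1 (0.52) or 5.2 (0.47), and in limma voom with the random nest term (0.51).

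A further 49 genes of cholesterol handling outside the 32 were listed, of which 48 were in the files and 47 were tested. With age, 19 fell (26.6% of all tested genes fell) and 9 rose (2911 of 16696 rose) in CTR, and 14 fell (25%) and 9 rose (2863 of 16696) in ELS. The largest fitted decreases were those of genes at or near 0 in adults. In CTR these were the steroid dehydrogenase Hsd11b1 (median 1.36 CPM at P9, listed at 0 in all CTR-PBS mice), the desaturase Scd1 (6.46 CPM, at most 0.350 in CTR-PBS) and the exporter Abcg4 (0.245 CPM, at most 0.0713). In ELS they were Scd1 (5.76 CPM), the receptor gene Lrp8 (1.47 CPM) and the oxysterol hydroxylase Cyp7b1 (0.154 CPM), each listed at 0 in all ELS-PBS mice. Hsd11b1, Abcg4, Lrp8 and Cyp7b1 were at most 0.818, 0.731, 0.858 and 0.99 CPM in any P200 mouse. They thus passed the filter only through P9 mice, so that only a fall could be found for them.

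The second comparison asked what an acute LPS challenge did to the pathway in adults. Its marked change was in Ch25h, the enzyme that makes an immune-regulating oxysterol. In CTR mice 4 of the 32 genes rose (8.73% of all tested genes rose) and 1 fell (6.2% fell). In ELS mice 2 rose (7.4%) and 2 fell (4.94%). Ch25h and Insig1 rose and Mylip fell in both conditions. Srebf2 and Sc5d were called higher only in CTR, and Soat1 lower only in ELS. The difference between the LPS effects of ELS and CTR mice was not called for any of these genes. DEGs numbered 3 in CTR (9.62% of all tested genes) and 2 in ELS (7.86%). Groups did not overlap for 2 genes in CTR (7.49%) and for 3 in ELS (10%). The sum of 7 LPS response genes rose from a median of 145 CPM in CTR-PBS to 2650 CPM in CTR-LPS, with no overlap. Summed monocyte and neutrophil markers were at most 11.0 CPM in every P200 group. Of 7 microglia markers, P2ry12 and Sall1 fell in both conditions (Sall1 from a median of 315 to 89.9 CPM in CTR). C1qa rose in ELS (medians of 3530 and 5160 CPM). Of 6 astrocyte markers, Slc1a3 rose in CTR (323 to 571 CPM), and Gja1 (0 to 2.07 CPM) and Gfap (0 to 1.05 CPM) rose in ELS. The part of these markers in the results after LPS was not tested.

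Ch25h was at 0.358 to 2.34 CPM (median 0.786) in CTR-PBS mice and at 19.0 to 162 CPM (median 99.5) in CTR-LPS mice. In ELS-PBS mice it was at 0 to 2.73 CPM (median 0.125). The 5 ELS-LPS mice had 27.8, 43.5, 173, 196 and 383 CPM. Every LPS mouse was far above every PBS mouse, while the LPS mice of each condition differed among themselves. Ch25h rose by 6.88 ± 0.84 in CTR (adjusted p = 6.7e-09, edgeR) and by 7.73 ± 0.94 in ELS (9.45e-09), a difference of 0.85 ± 1.06 (0.978). In P9-CTR it was at 0 to 1.63 CPM (median 0.289) and in P9-ELS at 0 to 1.09 (median 0.213). An antisense RNA gene, Gm26902, covers part of its exon and held 6219 counts over all mice, against 28066 for Ch25h.

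Insig1 ranged from 9.72 to 30.0 CPM (median 12.9) in CTR-LPS mice, with the PBS values given above. The 5 ELS-LPS mice had 11.3, 18.5, 18.7, 20 and 25.8 CPM, all above the highest ELS-PBS mouse (10.6). Insig1 rose by 1.01 ± 0.29 in CTR (adjusted p = 0.0106, edgeR) and by 1.45 ± 0.32 in ELS (0.00108). The CTR call was lost without CTR-LPS mouse 8.3 (0.78). Insig2 differed by -0.27 ± 0.14 and -0.24 ± 0.16, neither called. Srebf2 was at 11.4 to 58.5 CPM (median 16.5) in CTR-LPS, and the 5 ELS-LPS mice had 11.5, 20.9, 21.5, 23.7 and 27.3 CPM. It rose by 1.26 ± 0.39 in CTR (0.0187) and differed by 0.22 ± 0.43 in ELS (0.806), and the difference between these effects was -1.04 ± 0.58 (0.885). The CTR call was lost without CTR-LPS mouse 8.2 (0.94) or 8.3 (1.12), and in limma voom with the random nest term (1.03).

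Mylip fell after LPS, against its direction with age. CTR-LPS mice had 133 to 191 CPM (median 146), all under the CTR-PBS mice. The 5 ELS-LPS mice had 113, 116, 137, 137 and 140 CPM, all under the ELS-PBS mice. It fell by 0.75 ± 0.11 in CTR (adjusted p = 9.69e-07, edgeR) and by 0.71 ± 0.13 in ELS (4.59e-05). Soat1 was at 102, 178, 183, 187 and 197 CPM in the ELS-LPS mice and at 154 to 273 CPM (median 237) in ELS-PBS. It fell by 0.46 ± 0.14 in ELS (0.0182), a call lost without the ELS-LPS mouse at 102 CPM (-0.33) or the ELS-PBS mouse numbered 20 (-0.41), without the filter on low counts (-0.42) and with only the compared groups fitted (-0.46), and differed by -0.23 ± 0.12 in CTR (0.226).

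Little of the synthesis arm was called under LPS. Of the 17 enzymes 1 rose in CTR, Sc5d (0.58 ± 0.19, adjusted p = 0.0361, edgeR), and 0 were called in ELS. The Sc5d call was lost in 7 of the 14 fits that each left out 1 mouse, without the filter on low counts (0.58) and without the 3 mice with fewest detected genes (0.46). Fitted values lay between -0.91 (Fdps) and 1.07 (Hsd17b7) in CTR and between -0.57 (Fdps) and 1.35 (Hsd17b7) in ELS. The enzymes that differed most with age had the following levels after LPS, to be set beside the PBS values above. Sqle was at 0.600 to 3.14 CPM (median 1.66) in CTR-LPS and 0.761 to 4.84 (median 1.11) in ELS-LPS. Cyp51 was at 26.9 to 43.2 CPM (median 36.7) and 20.4 to 46.3 (median 29.1). Hmgcs1 was at 35.6 to 53.23 CPM (median 41.4) and 16.6 to 71.8 (median 33.7). None of the 3 was called after LPS. Idi1 was at 2.33 to 5.15 CPM (median 3.32) and 1.23 to 4.89 (median 1.98). Mvk was at 1.39 to 7.30 CPM (median 3.09) and 1.29 to 6.74 (median 3.47). Pmvk was at 8.23 to 20.8 CPM (median 11.5) and 10.2 to 21.6 (median 16.0). These 3 enzymes of the mevalonate route were not called either. Hsd17b7 was at 5.91 to 20.7 CPM (median 9.39) and 5.56 to 16.8 (median 9.83). The summed enzymes were at 517 CPM (490 to 555) in CTR-LPS and at 520 CPM (488 to 543) in ELS-LPS. After PBS these sums were 469 CPM (454 to 576) in CTR and 451 CPM (423 to 463) in ELS. Every ELS-LPS mouse was thus above every ELS-PBS mouse, while the CTR groups overlapped. The sum was not tested. Of the 17 enzymes, 11 had a fitted value above 0 in CTR (6 below) and 12 in ELS (5 below). The carrier gene Stard4 was at 1.82 to 8.51 CPM (median 4.67) and 2.21 to 10.2 (median 2.66), and Vldlr had 4 counts in 1 mouse in each LPS group and 0 in the others. The thiolase gene Acat2 was at 19.05 to 28.7 CPM (median 25.3) and 16.3 to 34.2 (median 27.1). Cyp27a1 was at 19.0 to 28.9 and 20.7 to 27.2 CPM, with a median of 25.2 in both. Abca1 (-0.25 ± 0.14 in CTR, -0.19 ± 0.16 in ELS) and Abcg1 (-0.49 ± 0.22 and -0.64 ± 0.25) were not called.

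Of the 47 further cholesterol genes, 3 rose (8.73% of all tested genes rose) and 4 fell (6.2%) after LPS in CTR, and 2 rose (7.4%) and 4 fell (4.94%) in ELS. The sterol transfer gene Gramd1a rose by 2.55 ± 0.31 in CTR and by 1.82 ± 0.33 in ELS (adjusted p = 4.59e-09 and 5.58e-05, edgeR). The esterifying enzyme gene Soat2 rose from a median of 0.496 to 6.73 CPM in CTR, and its medians in ELS were 0.557 and 5.62 CPM (adjusted p = 0.145, edgeR). The scavenger receptor gene Msr1 rose from 0.784 to 6.73 CPM in CTR, with 1.61 and 7.89 CPM in ELS (adjusted p = 0.106, edgeR). The sterol carrier gene Stard5 fell by 1.97 ± 0.21 in CTR and by 1.87 ± 0.24 in ELS, and the LXR target Arl4c by 1.33 ± 0.22 and 1.27 ± 0.25. The difference between the LPS effects of ELS and CTR mice was not called for any of these 5 genes.

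The last comparison, of early-life stress with control rearing, called none of the 32 genes in edgeR's quasi-likelihood test. At P9 the count was 0 of 32 (0% of all tested genes were called), with 2 genes at an unadjusted p under 0.05. After PBS it was 0 (0.168% of all), with 2 genes at an unadjusted p under 0.05, and after LPS 0 (0%), with 1. Neither the interaction of LPS and ELS (0 of 32, 0% of all, 0 at an unadjusted p under 0.05) nor that of age and ELS (0 of 32, 0.0299% of all, 3 at an unadjusted p under 0.05) called any. DESeq2 and limma with voom also called 0 in all 5 comparisons. Of the astrocyte markers, Gfap was lower in ELS after PBS (medians of 1.23 CPM in CTR-PBS and 0 in ELS-PBS).

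Fitted differences between ELS and CTR were small for abundant genes and poorly bounded for rare ones. At P9, 29 of the 32 lay within 0.5 of 0 on the log2 scale, after PBS 27 and after LPS 28. Sqle differed by -0.05 at P9 (95% interval -0.62 to 0.52), by -0.23 after PBS (-1.09 to 0.63) and by 0.42 after LPS (-0.46 to 1.3). Cyp51 differed by -0.15 (-0.42 to 0.12), -0.28 (-0.67 to 0.11) and -0.25 (-0.66 to 0.16). Abca1 differed by 0.02 (-0.18 to 0.22), -0.15 (-0.42 to 0.12) and -0.09 (-0.38 to 0.20). The interval of Ch25h was wide, from -0.66 to 2.00 after LPS.

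The gene nearest to a call was Mylip. It was lower in ELS by 0.31 ± 0.12 on the log2 scale after PBS (unadjusted p = 0.0102, adjusted p = 0.279, edgeR), with medians of 212 CPM in ELS-PBS and 258 in CTR-PBS and overlapping groups. After LPS the difference was -0.27 ± 0.12 (unadjusted p = 0.0317, adjusted p = 0.977, edgeR), and at P9 it was -0.04 ± 0.08. Scap, the SREBP escort, had an unadjusted p of 0.0243 after PBS (0.92 ± 0.40, adjusted p = 0.393, edgeR). At P9 the unadjusted p was 0.00786 for Acat2 (0.51 ± 0.18, adjusted p = 0.875, edgeR) and 0.0303 for Ebp (0.31 ± 0.14, adjusted p = 0.908). The highest values of both genes came from the P9-ELS mouse with 15731 detected genes.

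**Figure D4:**
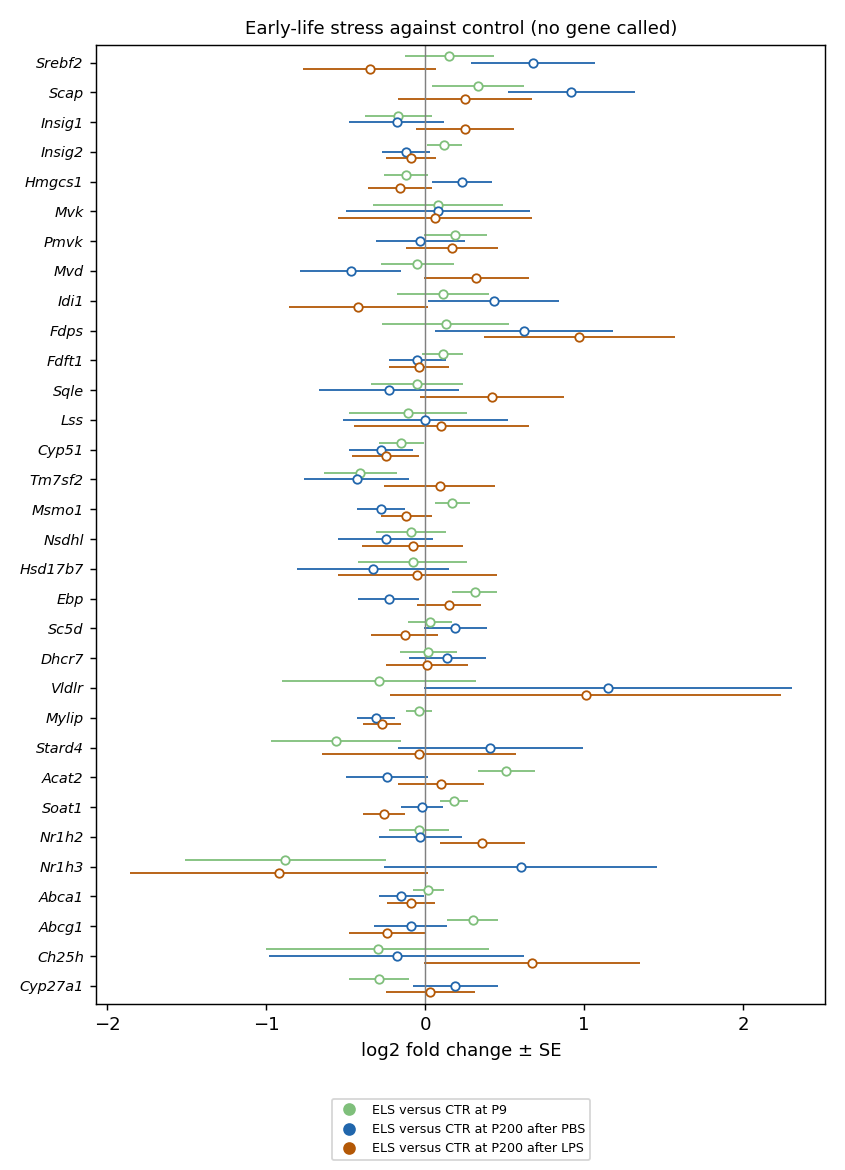
Log2 fold changes ± SE of ELS against CTR for the 32 cholesterol genes at P9 (green), after PBS (blue) and after LPS (brown). All points are open, since none had an adjusted p under 0.05; the widest SE is that of Vldlr at 1.23.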

How the data were processed

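The authors demultiplexed the reads with bcl2fastq 2.20, trimmed them with cutadapt 2.10, mapped them with STAR to GRCm39 and counted unique exonic reads per gene with HTSeq 0.11.0 (versions per the submitters' processing notes). The deposited values are these raw counts. The annotation release and strand setting are not given in the sources used here. Groups follow the age, rearing and injection named in the labels. The series text states 12 P9-ELS mice in one place, and the labels name 13, all used here.

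Counts were analysed with edgeR 4.0.16 (R 4.3.3, TMM). Genes reaching 1 CPM in over 2 mice entered the quasi-likelihood test in a model of 6 group means over 50 mice, and p was adjusted over 16696 genes. SE is the log2 fold change divided by the square root of F, and 95% intervals of a log2 fold change are normal approximations from it. CPM per kb used the canonical transcript of a GENCODE annotation of GRCm39. The precision of low genes is limited by their counts. p-values measure the spread between mice taken as independent. The paper states that rearing was assigned to whole litters at P2, while the labels do not say which mice were littermates. The first number of the mouse label took 4 values in the 13 P9-ELS mice and 5 in each other group. If these numbers are litters, p-values and intervals of ELS against CTR and of P200 against P9 rest on fewer independent units than mice.

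The 32 genes and the other lists were chosen with earlier results of these data known. Every group's lowest, median and highest CPM is given for each of the 32 that was a DEG in any comparison, values per comparison for the others, and of the genes outside the 32 those with the 3 largest changes among the called in a comparison. Alternatives were edgeR's likelihood-ratio test, DESeq2 1.42.0, other size factors and filters, limma 3.58.1 with voom, fits of the compared groups alone, and fits without some mice. The fits were tested on simulated data.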

Additional observations from a re-analysis of the deposited data

Results flagged for a closer look

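Within the P200 groups (5 to 7 mice), 128 sets of values of 1 gene in 1 group were examined for a mouse far from the rest, and 20 stood apart by Dixon's criterion, where chance gives about 1 in 20. These are values with no explanation.

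CTR-PBS mouse 1.1, in which few genes were detected, was the highest of its group for Insig2 (150 CPM, next 120), Cyp51 (49.5, next 29.0), Tm7sf2 (16.8, next 8.42), Nsdhl (39.0, next 23.3) and Ch25h (2.34, next 0.870). The ELS-PBS mouse numbered 20 was the highest for Pmvk (15.8, next 8.69) and the lowest for Tm7sf2 (1.14, next 5.65) and Sc5d (16.7, next 27.4). ELS-PBS mouse 4.1 was the highest for Mvk (3.63, next 2.54). In CTR-LPS, mouse 8.3 was the highest for Lss (13.9, next 7.86), the mouse numbered 15 for Hsd17b7 (20.7, next 11.6) and mouse 5.3 for Dhcr7 (69.7, next 41.3).

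The ELS-LPS mouse numbered 11 was the highest of its 5 for Ebp (201 CPM, next 137) and the lowest for Soat1 (102, next 178). Soat1 also had a high value in CTR-PBS mouse 5.1 (295, next 241) and a low one in ELS-PBS mouse 2.1 (154, next 230). Vldlr had counts in 1 mouse of each P200 group, at 0.0713 CPM in CTR-PBS, 0.113 in ELS-PBS, 0.105 in CTR-LPS and 0.247 in ELS-LPS, where the others were at 0. These 4 values rest on 1, 4, 4 and 4 counts.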

How the results depend on the processing

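No log2 fold change of a called cholesterol gene changed sign under any alternative run, and 759 of 803 such values stayed past the threshold. The number of the 32 genes called after LPS in ELS mice, 4, was 7 with DESeq2, 7 with edgeR's likelihood-ratio test and 9 without the 3 mice with fewest detected genes, where the calls over all tested genes were 2514, 2447 and 3536 against 2059 in the analysis reported. The number called after LPS in CTR mice, 5, was 8 in limma voom with a random nest effect (2931 over all genes, against 2493), and 2 with the nest as a replicate block (2279 over all genes), where Srebf2 (0.95), Insig1 (0.89) and Sc5d (0.69) were no longer called. In ELS the block ended the call of Soat1 (-0.44). Leaving out 1 P200 mouse at a time, it was between 3 and 6 (3 without CTR-LPS 8.2 and without 8.3), between 3 and 5 after LPS in ELS, 18 to 22 for age in CTR and 20 to 22 for age in ELS, with 2075 to 2399, 1627 to 1978, 6894 to 7126 and 6461 to 6627 calls over all genes. Without the 3 mice with fewest detected genes, age called 25 of the 32 in CTR and 24 in ELS (8313 and 8012 over all genes, against 7356 and 7045). Every alternative called 0 of the 32 between ELS and CTR and in both interactions. The nest is taken as the number before the point in the mouse label, which the sources used here do not define. Same-numbered P200 mice did not deviate together (correlations from -0.04 to 0.08 over 10 numbers), which does not show whether they were littermates, and P9 mice were not checked. Over all tested genes, the number called between ELS and CTR after PBS ran from 0 to 215 across the tests (28 in the analysis reported), 0 to 10 after LPS and 0 to 1 at P9. For the interaction of LPS and ELS it ran from 0 to 66, and for age and ELS from 0 to 29. Depth limits Vldlr, Nr1h3, Fdps and Ch25h in PBS mice, whose counts were few.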
